A study of Homo sapiens with 6 samples.

Results

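The transcripts of 9 genes that encode the NF-kB transcription factors and the kinase complex that releases them were compared between slow-cycling and rapid-cycling breast cancer cells. They were chosen by name: the subunits NFKB1, NFKB2, REL, RELA and RELB, the nuclear co-regulator BCL3, and the kinase complex genes CHUK, IKBKB and IKBKG. All 9 were found, each as 1 row among the 58735 genes of the deposited tables, and all 9 passed the filter on low counts, which left 15881 genes for testing. All libraries came from MDA-MB-231, a triple-negative breast cancer line of human origin that the labels call wild type. They had been stained with PKH26, a membrane dye that is diluted at each division, and grown on for 12 days. The brightest 1% were sorted as slow-cycling cells (SCC), while cells of moderate brightness in the protocol text, called low in dye in the sample labels, were sorted as rapid-cycling cells (RCC). Each group held 3 libraries described as biological replicates of this 1 line, and the brightness gate was the only difference between the groups that the labels give.

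NF-kB factors are dimers of 5 related proteins that share the Rel homology domain. RELA, RELB and REL carry a transactivation domain, whereas NFKB1 and NFKB2 are made as long precursors that are processed to DNA-binding subunits without one. In resting cells IkB proteins, or the uncut NFKB1 and NFKB2 precursors, hold the dimers in the cytoplasm. In the canonical arm, receptors for TNF or interleukin 1 activate the IKK complex, in which IKBKB and CHUK are the kinases and IKBKG (NEMO) the regulatory subunit, and IkB is degraded. In the noncanonical arm, the kinase MAP3K14 (NIK) acts through CHUK on the NFKB2 precursor and releases dimers of RELB and processed NFKB2. Much of this control acts on proteins, which RNA counts do not measure.

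RELB was the only 1 of the 9 genes to pass the test, and it rose in SCC by 1.85-fold. NFKB2, RELA and BCL3 lay above every RCC library in all SCC libraries, at 1.26-fold to 1.38-fold, and did not pass the test. REL and IKBKG had estimates above 1 with overlapping groups. NFKB1, CHUK and IKBKB had fold changes between 0.932 and 1.001. A gene was called when its Benjamini-Hochberg adjusted p from the quasi-likelihood test of edgeR was under 0.05. Among the members 1 was called higher in SCC and 0 lower, beside 1.69% and 0.378% of all tested genes. By p before adjustment, under 0.05, 4 members were higher and 0 lower, beside 11.4% and 8.27% of all genes. DESeq2 called 3 higher and 0 lower, against 3.02% and 1.07% of all genes. The groups did not overlap, with SCC higher, for 4 of the 9 members and for 14.4% of all genes. No member had SCC below every RCC library, which was so for 13.4% of all genes. The median log2 fold change of the 9 members was 0.31, and that of all tested genes 0.00.

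Summed counts per library ranged from 17655855 to 27831824, and no pair of libraries in a group agreed within sampling noise. SCC replicate 1 stood apart from the others by the GC content of genes. Its median log2 ratio to the mean of SCC replicates 2 and 3 ran from -0.24 in the lowest decile of GC content to 0.39 in the highest. The fold change between the groups moved with GC content as well, from a median log2 value of -0.15 in the lowest decile to 0.26 in the highest. Without SCC replicate 1 these medians were -0.07 and 0.09, and with an offset for GC content -0.01 and -0.01. The offset was fitted to the GC trend of these same libraries, so its small medians follow from the fit. It also removes any difference between the groups that follows GC content. The median log2 fold change of the 9 members was 0.20 without SCC replicate 1 and 0.12 with the offset. Mitochondrial genes took 4.45% to 4.75% of counts in SCC and 3.77% to 3.96% in RCC, and the part of this difference in the results below was not tested. Markers of the line (VIM, CD44, EGFR, AXL and CAV1) summed to 3405 to 3502 CPM (counts scaled to the TMM-adjusted library total) in SCC and 3330 to 3482 in RCC. Leukocyte markers summed to 0.97 to 4.04 CPM in SCC and 0.72 to 1.06 in RCC. Luminal and HER2 markers summed to 687 to 776 CPM in SCC and 603 to 627 in RCC, mostly from KRT8, and ESR1 and PGR stayed at or below 0.69 CPM in all libraries. Endothelial and fibroblast markers summed to 26.7 to 31.8 CPM in SCC and 21.9 to 25.6 in RCC. Of the 14 markers tested edgeR called 0, beside 1.69% higher and 0.378% lower of all tested genes. By unadjusted p 4 were higher and 0 lower, beside 11.4% and 8.27% of all genes. DESeq2 called 1 higher and 0 lower, beside 3.02% and 1.07%. The groups did not overlap, with SCC higher, for 4 of the 14 and for 14.4% of all genes. The part of these markers in the results was not tested.

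**Figure D1:**
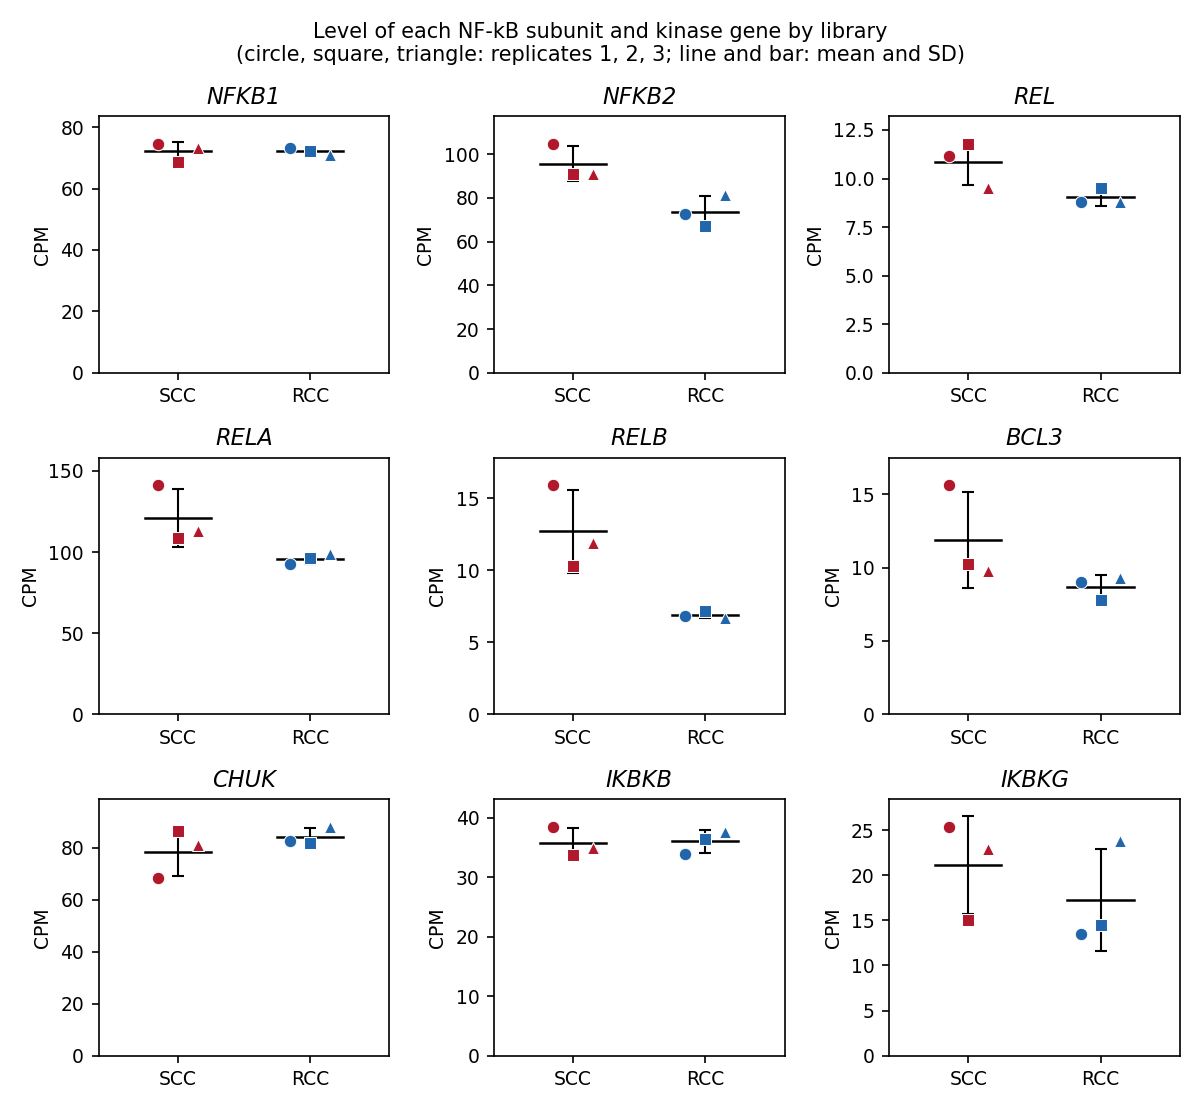
CPM (y axis, linear from 0, scaled separately for each gene) of the 9 genes in each of the 3 SCC and 3 RCC libraries; symbols mark replicates 1, 2 and 3, the line is the group mean and the bar its SD. RELB, NFKB2, RELA and BCL3 are the panels in which every SCC library lies above every RCC library, and SCC replicate 1 is the highest library for each of these 4.

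RELB (ENSG00000104856, chromosome 19, 45001430 to 45038198, GRCh38) encodes the subunit of the noncanonical arm. Its level was 15.9, 10.3 and 11.9 CPM in SCC replicates 1 to 3, and 6.86, 7.20 and 6.70 CPM in RCC replicates 1 to 3. The 3 RCC libraries lay close together and below all SCC libraries, whereas SCC replicate 1 stood above the other two. The means were 12.7 ± 2.89 CPM for SCC against 6.92 ± 0.26 for RCC (SD, n = 3 each), from 202 to 430 counts per library in SCC and 120 to 158 in RCC. The fitted log2 fold change was 0.88 ± 0.16 (standard error) with a 95% interval from 0.53 to 1.24 (edgeR adjusted p 0.0201), the 169th smallest p among all tested genes. In bulk libraries a higher level in each cell and a larger share of expressing cells cannot be told apart.

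The RELB transcript is rich in GC, at 65.4%, in the range where SCC replicate 1 read high. After an offset for GC content, an alternative added with the data in view, RELB was at 11.7, 10.9 and 11.7 CPM in SCC and 7.66, 8.16 and 6.95 CPM in RCC. The 3 SCC libraries then lay close together, and the log2 fold change was 0.59 (edgeR adjusted p 0.0067). That fit called 3.29% of all genes higher and 1.54% lower. Without SCC replicate 1 it was 0.69 (adjusted p 0.0021), in a fit that called 3.93% of all genes higher. RELB was not called without RCC replicate 1, 2 or 3 (adjusted p 0.1132, 0.085 and 0.1135), with log2 fold changes of 0.865, 0.908 and 0.853. These fits called 0.608%, 0.602% and 0.63% of all genes higher. It was also not called by limma on log2(FPKM + 1), log2(FPKM + 0.1) or log2(FPKM + 1) without a filter, which called 1.04%, 0.938% and 0.128% of all genes higher (adjusted p of RELB 0.0799, 0.0723 and 0.2719). Over 17 alternatives its log2 fold change ranged from 0.59 to 1.00 and it was called in 11.

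NFKB2 (ENSG00000077150, chromosome 10, 102394110 to 102402529) encodes the precursor that becomes the partner of RELB. It was measured at 104.8, 91.1 and 91.1 CPM in SCC and at 72.5, 67.0 and 81.5 CPM in RCC. The groups did not overlap, and RCC replicate 3 was the RCC library nearest to SCC. The means were 95.6 ± 7.93 and 73.7 ± 7.29 CPM (SD, n = 3 each), and the log2 fold change of 0.38 with a standard error of 0.09 was not past the threshold (edgeR adjusted p 0.0624). NFKB2 was called in 5 of 17 alternatives, among them DESeq2 (adjusted p 0.0134), the fits without SCC replicate 1 (log2 fold change 0.31, adjusted p 0.0032) and without SCC replicate 2 (0.40, adjusted p 0.0407), and the fit with the replicate number as a block (adjusted p 0.0412). The last 2 called 3.57% and 2.2% of all genes higher. Under the GC offset the groups overlapped for NFKB2, at 0.17 on the log2 scale (adjusted p 0.1517). The GC content of its transcript was 62.4%.

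RELA (ENSG00000173039, chromosome 11, 65653596 to 65663094) encodes p65, the main transactivating subunit of the canonical arm. It was at 141.2, 108.4 and 113.0 CPM in SCC and at 92.7, 96.2 and 98.8 CPM in RCC. All SCC libraries lay above RCC, with the largest gap in SCC replicate 1. The means were 121 ± 17.8 and 95.9 ± 3.06 CPM (SD, n = 3 each), and the log2 fold change of 0.33 with a standard error of 0.10 was not past the threshold (edgeR adjusted p 0.1061). With the GC offset the groups still did not overlap, and RELA was called at a smaller log2 fold change of 0.21 (adjusted p 0.0336). It was called likewise without SCC replicate 1 (0.21, adjusted p 0.0156), without SCC replicate 2 (0.39, adjusted p 0.0375) and by DESeq2 (adjusted p 0.0493), in 6 of 17 alternatives in all. RELA was not called in the others, among them the fits without SCC replicate 3 or any 1 RCC library, limma and the replicate block (adjusted p 0.0863), and its adjusted p reached 0.4772.

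REL (ENSG00000162924, chromosome 2, 60881521 to 60931610), the c-Rel gene, which is best known from lymphocytes, had the lowest level per length of the 5 subunits by FPKM. Its CPM values were 11.2, 11.8 and 9.52 in SCC and 8.77, 9.54 and 8.77 in RCC. SCC replicate 3 lay just below RCC replicate 2, so the groups overlapped. The log2 fold change was 0.26 with a 95% interval from -0.01 to 0.54 (edgeR adjusted p 0.2723). REL has a transcript of low GC content, 38.7%, and moved the other way under the GC offset. There it was at 12.8, 11.5 and 9.62 CPM in SCC and 8.41, 9.03 and 8.56 CPM in RCC, with a log2 fold change of 0.39 (adjusted p 0.0906). Before the offset REL did not read low in SCC replicate 1, with a log2 ratio of 0.07 to the mean of the other SCC libraries. With the GC offset REL, RELA and RELB were the members whose groups did not overlap, against 13.1% of all genes with SCC higher.

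NFKB1 (ENSG00000109320, chromosome 4, 102501329 to 102617302), the gene of the precursor of the canonical partner of RELA, was at 74.6, 68.6 and 73.3 CPM in SCC and at 73.1, 72.4 and 70.9 CPM in RCC. The SCC libraries lay on both sides of RCC. The means were 72.2 ± 3.12 and 72.1 ± 1.15 CPM (SD, n = 3 each), and the 95% interval of the fold change ran from 0.900 to 1.11 (edgeR adjusted p 0.993). This interval lies below those of RELB, from 1.44 to 2.37, and NFKB2, from 1.13 to 1.49, and it overlaps the intervals of REL and RELA, which reach down to 0.990 and 1.09.

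**Figure D2:**
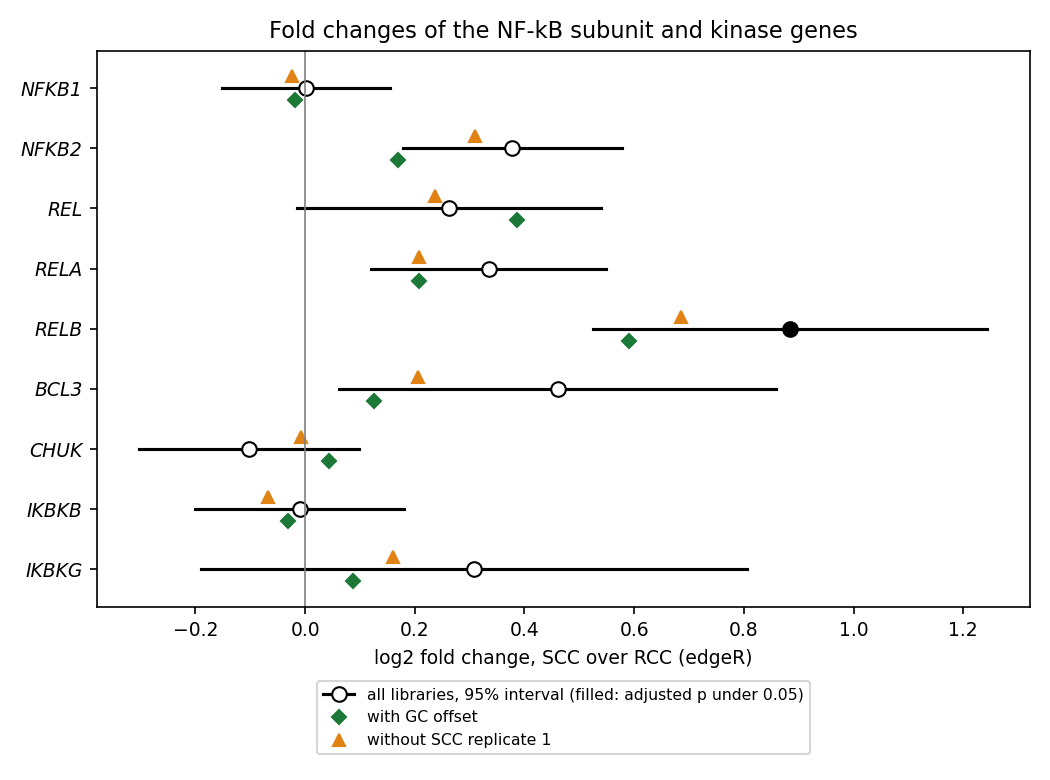
Log2 fold change of SCC over RCC by edgeR (x axis) for the 9 genes; circles and lines are the fit of all libraries with its 95% interval, diamonds the fit with the GC offset, triangles the fit without SCC replicate 1. RELB is the 1 filled circle and lies at 0.88, 0.59 and 0.69 in the 3 fits, while NFKB1 stays between -0.02 and 0.00.

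Per length, the 5 subunit transcripts were far from equal. RELA and NFKB2 were the most abundant in both groups, at 22.0 ± 3.08 and 21.2 ± 1.61 FPKM (fragments scaled to gene length and library total) in SCC and 17.5 ± 0.61 and 16.4 ± 1.57 in RCC (SD, n = 3 each), and their ranges overlapped. NFKB1 followed at 11.5 ± 0.46 FPKM in SCC and 11.5 ± 0.19 in RCC. RELB was at 4.16 ± 0.92 FPKM in SCC and 2.28 ± 0.10 in RCC, and REL was lowest at 0.817 ± 0.087 and 0.684 ± 0.038. The order of the 5 was the same in both groups, whereas by mean RELB stood above BCL3 and IKBKB in SCC and below both in RCC. In SCC the ranges of RELB and BCL3 overlapped, as did those of BCL3 and IKBKB. RELB cleared IKBKB there only narrowly, with a lowest value of 3.387 against a highest of 3.38 FPKM. In RCC none of these ranges overlapped. The deposited length of REL, 13170 bases, was the longest of the members, and 43.3% of its annotated exon bases are shared with AC010733.2, a noncoding gene on the same strand listed at 0 counts in all 6 libraries. Whether reads in the shared bases were counted for REL is not stated, and the part of this overlap in its FPKM was not tested.

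Within each library the summed FPKM of the 5 subunits was split into shares, which no scaling of libraries can change. RELB made up 7.80%, 6.13% and 6.86% of the sum in SCC and 4.73%, 5.03% and 4.38% in RCC. NFKB1 made up 17.7%, 19.8% and 20.4% in SCC and 24.5%, 24.5% and 22.5% in RCC. These 2 shares did not overlap between the groups, RELB being higher by 2.22 percentage points and NFKB1 lower by a difference of -4.49 points in SCC. The two-sided exact permutation p was 0.1 for each, the smallest that 3 against 3 libraries allow, or 0.4 with Benjamini-Hochberg adjustment over the 8 shares of subunits and kinases. The shares of NFKB2, RELA and REL overlapped, with differences of 1.76, 0.54 and -0.04 points. With the GC offset the difference was 1.66 points for RELB, -2.82 for NFKB1 and 0.05 for NFKB2. A share falls when the others grow, and the NFKB1 level itself did not pass the test.

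**Figure D3:**
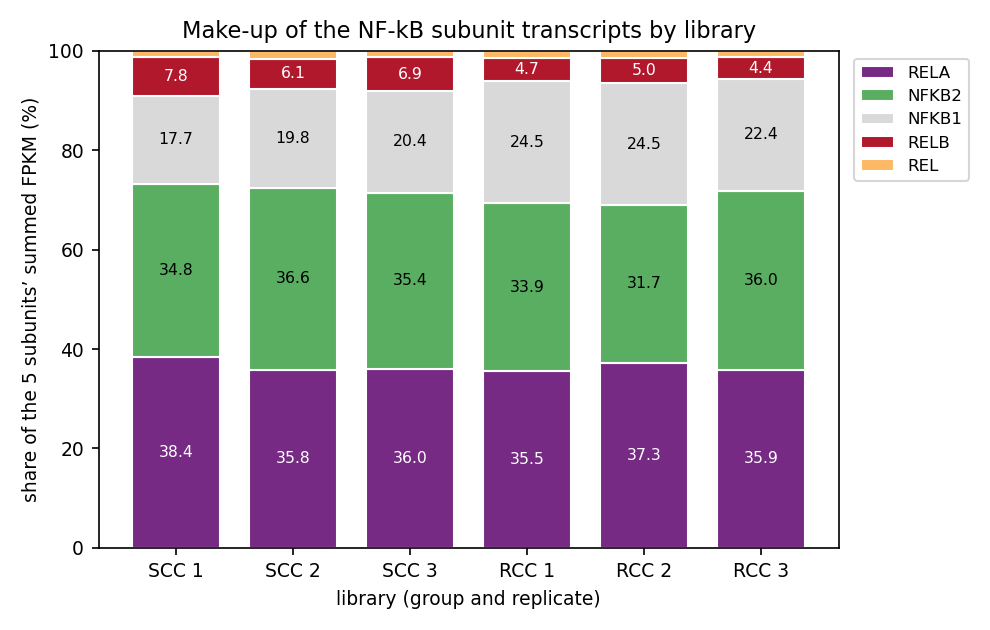
Share of each subunit in the summed FPKM of the 5 subunit genes (y axis, percent) in each of the 6 libraries, stacked to 100%. RELB takes 6.13% to 7.80% in the SCC libraries and 4.38% to 5.03% in RCC, and NFKB1 17.7% to 20.4% against 22.5% to 24.5%.

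NF-kB factors bind kappa B sites, decamers that open with GGG and close with CC, and several genes of the family are known to carry such sites at their own starts. The 250 bases before each RefSeq start (GRCh38.p14) were searched on both strands for the kappa B consensus, with overlapping matches merged. RefSeq windows were matched for 7 of the 9 members, 14 windows in all, and RELB and IKBKB were not among them. A match was found in 4 of the 14 windows, of NFKB1, NFKB2 and REL, and in 5.21% of 35116 windows of all genes. The 6 matches are shown because they set the subunit genes with a match beside their values above. Each line gives 30 bases, 5′ to 3′, on the plus strand, with the match in capitals.

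NFKB1, chr4:102501300-102501329: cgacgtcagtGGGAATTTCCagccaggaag
NFKB2, chr10:102394462-102394491: aaacgtcatGGGAATTCCCCcctccggggg
NFKB2, chr10:102394490-102394519: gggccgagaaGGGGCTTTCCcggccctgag
NFKB2, chr10:102395519-102395548: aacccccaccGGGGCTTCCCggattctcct
NFKB2, chr10:102395674-102395703: tggtattttcGGGACTTTCCtaagctgctc
REL, chr2:60881518-60881547: gtcagccgcGGGAAATTCCCctcccgccag

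The NFKB1 match lay 49 bases before a RefSeq start and outside the gene as GENCODE 29 draws it. The REL match began 47 bases before the RefSeq start. It fell in a noncoding part of a GENCODE exon, as did 3 of the 4 NFKB2 matches. The NFKB2 match that begins 176 bases before its RefSeq start was intronic. NFKB1, with 1 match, was the subunit with a fold change of 1.001, while NFKB2 had 4 matches in 2 of its 3 windows. RELA had none in 2 windows. The matches describe these letters only, and no binding was measured here.

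BCL3 (ENSG00000069399, chromosome 19, 44747705 to 44760044) encodes an IkB-like nuclear protein that binds homodimers of processed NFKB1 or NFKB2. It was at 15.6, 10.3 and 9.75 CPM in SCC and at 9.03, 7.78 and 9.27 CPM in RCC. SCC replicate 1 was far above the rest, and SCC replicate 3 exceeded RCC replicate 3 only narrowly. Its fitted log2 fold change was 0.46 ± 0.18 (standard error) (edgeR adjusted p 0.2013), and it was 0.20 without SCC replicate 1 (adjusted p 0.4342). With the GC offset the log2 fold change was 0.12 (adjusted p 0.5872) and the groups overlapped. The BCL3 transcript had the highest GC content of the members, 67.4%, and its log2 ratio of SCC replicate 1 to the mean of the other SCC libraries was 0.64.

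**Figure D4:**
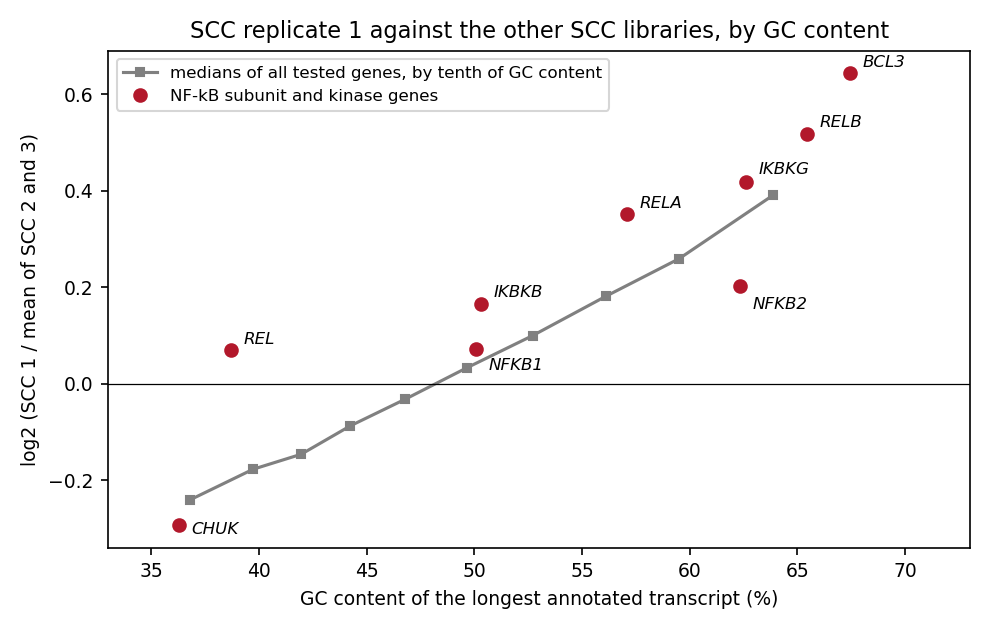
Log2 ratio of SCC replicate 1 to the mean of SCC replicates 2 and 3 (y axis) against the GC content of the longest annotated transcript (x axis, percent); circles are the 9 genes and squares the medians of all tested genes in deciles of GC content. BCL3 and RELB, at 67.4% and 65.4% GC, lie highest with 0.64 and 0.52, and CHUK, at 36.3%, lies lowest with -0.29, along the direction of all genes. REL, at 38.7%, lies at 0.07, above the medians of deciles 1 and 2, -0.24 and -0.18.

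CHUK (ENSG00000213341, chromosome 10, 100188298 to 100229619), the IKK alpha kinase used by both arms, was at 68.3, 86.4 and 81.0 CPM in SCC and at 82.5, 82.0 and 88.2 CPM in RCC. SCC replicate 1 was the low library and the groups overlapped. The 95% interval of the fold change ran from 0.811 to 1.07 (edgeR adjusted p 0.5412). Its log2 fold change of -0.10 was -0.01 without SCC replicate 1 and turned to 0.04 with the GC offset. IKBKB (ENSG00000104365, chromosome 8, 42271302 to 42332653), the IKK beta kinase of the canonical arm, was at 38.5, 33.7 and 34.9 CPM in SCC and at 34.0, 36.4 and 37.6 CPM in RCC. Its groups overlapped, and the interval of the fold change ran from 0.870 to 1.13 (adjusted p 0.9609). CHUK was the kinase transcript of higher level per length, at 11.3 ± 1.40 FPKM in SCC and 12.1 ± 0.48 in RCC, against 3.16 ± 0.20 and 3.20 ± 0.18 for IKBKB (SD, n = 3 each).

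IKBKG (ENSG00000269335, chromosome X, 154541199 to 154565046), the regulatory subunit, had an SD within each group, 5.41 CPM in SCC and 5.69 in RCC, above the difference between the group means. It was at 25.4, 15.1 and 23.0 CPM in SCC and at 13.5, 14.5 and 23.8 CPM in RCC. SCC replicate 2 lay with RCC replicates 1 and 2, and RCC replicate 3 lay with SCC replicates 1 and 3. The log2 fold change was 0.31 with the widest 95% interval of the members, -0.19 to 0.81 (edgeR adjusted p 0.4568). It was 0.09 with the GC offset, 0.16 without SCC replicate 1, 0.14 and 0.19 without RCC replicates 1 and 2, and 0.59 without RCC replicate 3, and it was called in none of 18 alternatives. IKBKG values are uncertain because it has a shorter near-identical copy, IKBKGP1 (chromosome X, 154639978 to 154648275). The deposited lengths were 1073 bases for IKBKGP1 and 3529 for IKBKG. IKBKGP1 held 205 counts in SCC replicate 3 and 14 to 23 in the other 5 libraries. With both genes summed in each library, likewise added with the data in view, the log2 fold change was 0.47 (adjusted p 0.3107). Of the summed FPKM of the 3 kinase complex genes, IKBKG took 35.2%, 21.6% and 30.6% in SCC and 20.4%, 21.4% and 29.5% in RCC. The difference between the mean shares, 5.34 points, was 0.861 with the GC offset. The exact permutation p of the 3 kinase complex shares ranged from 0.2 to 0.7.

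Genes around the 9 members in the pathway were described by role, from 5 lists with 79 genes, of which 67 passed the filter on low counts. The lists were written with earlier results of these data known. Their counts are therefore descriptive, and the shares of all genes beside them are no test of the lists. In the lists 10 genes rose in SCC and 0 fell, and all 10 were inhibitors or targets, beside 1.69% and 0.378% of all tested genes. By unadjusted p of edgeR, under 0.05, 28 were higher and 3 lower, beside 11.4% and 8.27% of all genes. DESeq2 called 14 higher and 0 lower, beside 3.02% and 1.07%. The median log2 fold change of the 67 genes was 0.18. The groups did not overlap with SCC higher for 29 of the 67, and with SCC lower for 4. These shares were 14.4% and 13.4% over all tested genes. The 4 with SCC lower were 1 receptor gene and 3 genes of adaptors, ubiquitin ligases and upstream kinases.

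Among ligands 6 of 12 passed the filter, and TNF, with at most 4 counts in a library, did not. None of the 6 was called by edgeR or DESeq2, and 1 was higher by unadjusted p. That gene, IL1B, the interleukin 1 beta gene, had a low level, 0.94 ± 0.33 CPM in SCC against 0.31 ± 0.10 in RCC (SD, n = 3 each; edgeR adjusted p 0.0933). Among receptors 10 of 11 passed the filter and 0 were called by edgeR or DESeq2, with 3 higher and 1 lower by unadjusted p and a median log2 fold change of 0.03. TLR3, the endosomal receptor for double-stranded RNA, had the smallest p, at 11.5 ± 0.65 CPM in SCC against 14.0 ± 1.15 in RCC (log2 fold change -0.29, adjusted p 0.2024). With the GC offset its log2 value was -0.15 and the groups overlapped. All 25 adaptors, ubiquitin ligases and upstream kinases passed the filter, with a median of 0.02. Of these edgeR called 0, with 6 higher and 2 lower by unadjusted p, and DESeq2 called 1 higher. MAP3K14, which encodes NIK, the kinase that starts processing of the NFKB2 precursor, had the smallest p there, at 34.7 ± 3.03 CPM in SCC against 28.0 ± 1.30 in RCC (log2 fold change 0.31, adjusted p 0.1101). Its log2 value was 0.155 with the GC offset (adjusted p 0.2434).

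Of the IkB proteins and other inhibitors, 3 of 9 rose and 0 fell, and the 9 had a median log2 value of 0.27. NFKBIA, the gene of IkB alpha, was at 149.5, 133.6 and 137.8 CPM in SCC and 50.1, 50.4 and 51.9 CPM in RCC. TNFAIP3, which encodes the deubiquitinase A20, was at 30.2 ± 2.92 against 6.00 ± 0.46 CPM. NFKBIZ, which encodes a nuclear IkB protein, was at 54.8 ± 1.27 against 20.3 ± 0.91 CPM (SD, n = 3 each). Their log2 fold changes were 1.47, 2.33 and 1.43, and all 3 were called in each of 17 alternatives. NFKBIE, picked after its value was seen, had a log2 fold change of 0.52 (edgeR adjusted p 0.0654).

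Of the targets 17 of 22 passed the filter, 7 rose and 0 fell, with a median log2 fold change of 0.68. The 4 with the smallest p were the chemokine genes CXCL2 and CXCL8, PTGS2, which encodes cyclooxygenase 2, and the adhesion molecule gene ICAM1. CXCL2 had 16.5 ± 0.57 CPM in SCC against 1.55 ± 0.37 in RCC, CXCL8 at 54.1 ± 13.3 and 12.3 ± 2.73, PTGS2 at 11.2 ± 1.73 and 4.14 ± 0.54, and ICAM1 at 6.59 ± 0.89 and 2.31 ± 0.23 (SD, n = 3 each). Their log2 fold changes were 3.38, 2.13, 1.43 and 1.51, each larger than that of any of the 9 members. CXCL2 was called in each of 17 alternatives. CXCL8, PTGS2 and ICAM1 were each called in 16, and not by limma on log2(FPKM + 1) without a filter (adjusted p 0.0728, 0.1313 and 0.1197). All SCC libraries lay above RCC for 13 of the 17 tested targets, beside 14.4% of all tested genes. The groups overlapped for the other 4, CCL2, SOD2, BCL2A1 and TRAF1, which are named after their values were seen. With the GC offset the groups overlapped for BCL2L1, TNFAIP2 and PLAU as well. That offset left 13.1% of all genes with SCC higher and no overlap. SOD2 was at 93.5 ± 3.0 against 91.7 ± 5.04 CPM, and CCL2 at 101 ± 13.5 against 94.8 ± 7.45 (SD, n = 3 each; log2 fold changes 0.03 and 0.09, edgeR adjusted p 0.8402 and 0.6359). CYLD and BIRC3, listed among the inhibitors and the ubiquitin ligases, are named outside the rule given below. Their log2 fold changes were 0.10 and -0.07 (edgeR adjusted p 0.5173 and 0.8464). With the GC offset CYLD was at 62.2, 60.75 and 61.79 CPM in SCC and 55.3, 55.49 and 49.49 CPM in RCC. Its groups then did not overlap, while those of BIRC3 still did.

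**Figure D5:**
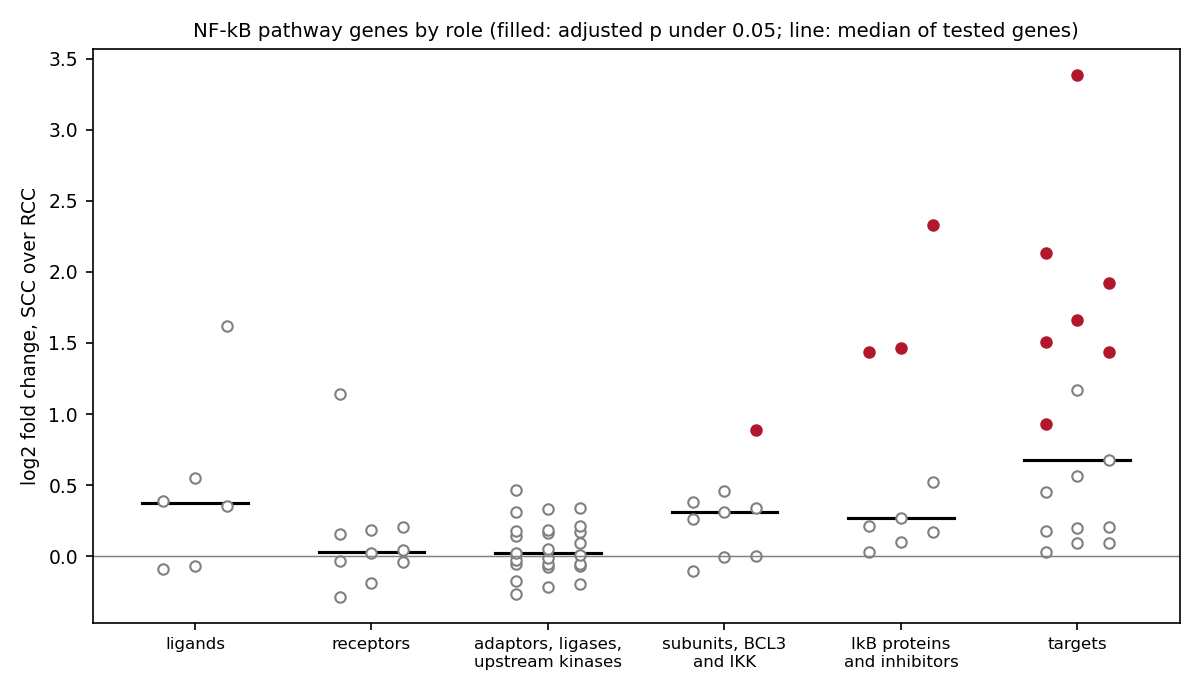
Log2 fold change of SCC over RCC (y axis) for tested NF-kB pathway genes by role (x axis); filled circles passed the test at an adjusted p under 0.05 and lines are medians over tested genes. The 3 filled inhibitors lie between 1.43 and 2.33, the filled targets reach 3.38, and RELB at 0.88 is the 1 filled circle among the subunits, BCL3 and the IKK complex.

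The deposited tables tag the 5 NFAT genes with the Rel homology domain family too. Of these edgeR called 0, beside 1.69% higher and 0.378% lower of all tested genes. DESeq2 called 0, beside 3.02% and 1.07%. By unadjusted p 1 was higher and 0 lower, beside 11.4% and 8.27% of all genes. In all 5 the groups overlapped, while 27.8% of all genes had no overlap in either direction. With only 5 genes, these counts do not set the NFAT genes apart from all genes. The median log2 fold change of the 5 NFAT genes was 0.02. NFATC1, a calcium-regulated factor, was highest at 0.37 (edgeR adjusted p 0.2491).

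Among 10899 other tested genes with a mean of at least 5 CPM, those most like RELB by Pearson's r of log2 CPM over the 6 libraries were CTSD (0.999), PIM1 (0.998), RGS3 (0.997), GRN (0.997) and ADGRE5 (0.996). CTSD encodes the lysosomal protease cathepsin D, GRN progranulin and PIM1 a serine/threonine kinase. CTSD was at 193.8, 133.9 and 151.8 CPM in SCC and 98.9, 104.2 and 99.1 CPM in RCC, with SCC replicate 1 highest as for RELB. All 5 have transcripts of above-median GC content, 56.1% to 64.0%, and the libraries share the difference between groups and the GC trend. An r of at least 0.98 was reached by 90 of these genes, so the order among them carries little.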

How the data were processed

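Per the labels' protocols, an NEBNext Ultra kit was used on TRIzol-extracted total RNA. The submitters' processing notes name HISAT2 2.0.5 and featureCounts 1.5.0-p3, without settings, build or use of strand. The authors deposited whole-number counts per gene and FPKM per gene. Each FPKM equalled the count divided by gene length and by 1 constant per library, 0.984 to 1.02 times its summed count. All 58735 rows had GENCODE 29 positions on GRCh38, and every row named a gene.

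Testing used edgeR 4.0.16 (R 4.3.3): filterByExpr at a minimum count of 10, TMM scaling and glmQLFit on group alone, with Benjamini-Hochberg adjustment over all tested genes. CPM values use TMM-scaled library totals. Standard errors were derived from the fold change and its F statistic. Alternatives used DESeq2 1.42.0, limma 3.58.1 on FPKM (log2, pseudocounts 1 and 0.1, trended prior), RLE and upper-quartile scaling, 2 other count filters, the replicate number as a block, a GC offset (lowess, span 0.3) and each library left out. GC content came from the longest GENCODE 29 transcript of each gene, for 15874 tested genes. No genome sequence was used here, so the planned offset from the genome was replaced by this one, added after seeing the data. Scripts were tested on simulated data. Replicates sharing a number did not deviate together (correlations -0.01, 0.02 and -0.08). P-values measure the spread between these libraries.

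Named were the 9 members, in each list up to 4 called genes by p or else the 1 with the smallest p, and the 5 genes most like the member with the smallest p. Members and lists were chosen with earlier results of these data known.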

Additional observations from a re-analysis of the deposited data

How the results depend on the processing

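RELB kept its direction in all 17 alternatives and was called in 11. Percentages in brackets give the share of all genes called higher in the same fit. Members called higher numbered 1 in the main analysis (1.69%), 3 with DESeq2 (3.02%) and 4 with all genes of at least 1 count (2.65%). They numbered 2 with the replicate block (2.2%), 2 with the GC offset (3.29%) and 2 with both (3.87%). With limma they numbered 0 on log2(FPKM + 1) (1.04%), log2(FPKM + 0.1) (0.938%) and log2(FPKM + 1) without a filter (0.128%). Without 1 library they ranged from 0 (each RCC library, 0.602% to 0.63%) to 3 (SCC replicates 1 and 2, 3.93% and 3.57%). No member was called lower in any setting. Pathway list genes called higher, 10 in the main analysis, numbered 18 with every gene of at least 1 count (2.65%) and 4 with limma without a filter (0.128%). Without 1 library they ranged from 7 (RCC replicate 1, 0.608%) to 16 (SCC replicate 1, 3.93%).

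Over all genes, 268 were called higher and 60 lower. DESeq2 gave 480 and 170, all genes of at least 1 count 995 and 315, and limma 130 and 36, 117 and 34, and without a filter 48 and 1. The GC offset gave 523 and 244, a higher share of called genes of 68.2% against 81.7%. The replicate block gave 350 and 106, a higher share of 76.8%, and both together 615 and 421, a higher share of 59.4%. Higher genes ranged from 99 to 642 and lower genes from 8 to 343 without 1 library. The cause was not tested.

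NFKB1, at 0.001, turned negative with DESeq2 and RLE scaling (-0.004 each), upper-quartile scaling (-0.017), 10 counts in every library (-0.002), the 3 limma settings (-0.006 each), the GC offset (-0.018) and the block with it (-0.019), and without single libraries (down to -0.023, up to 0.022). CHUK turned positive with the GC offset (0.044) and with the block and that offset (0.045). IKBKB turned positive without SCC replicate 2 (0.016) or RCC replicate 3 (0.014), and ranged down to -0.067 without SCC replicate 1. None of these 3 was called in any setting. The share differences under the GC offset were -2.82 points for NFKB1, 0.049 for NFKB2 and 0.206 for REL. The NFKB1 values without single libraries included -0.023, -0.020, -0.001 and -0.020. Counts of 120 to 430 per library for RELB, BCL3 and REL limit what could be detected for small changes in these genes.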

Other observations

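IKBKGP1, the shorter copy of IKBKG, was at 9.71 CPM in SCC replicate 3 and at 0.77 to 0.87 CPM in the other 5 libraries. IKBKG itself was at 23.0 CPM in SCC replicate 3. The labels give nothing that sets this library apart.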
